A study of Homo sapiens with 6 samples.

Results

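MAT1A, BHMT, BHMT2 and AHCY encode enzymes of the methionine cycle, and their rows were taken by name from the table that the study's authors deposited for HepG2 cells transfected with an siRNA against H19. All 4 have a row, out of 1998 genes that the table lists. HepG2, derived from a liver tumour, is used widely as a stand-in for hepatocytes. The cells received an H19 siRNA (siH19, 3 libraries) or a control siRNA (siCon, 3 libraries) and were harvested 48 h later. The study set out to find genes regulated by H19, a long noncoding RNA of an imprinted locus. The table holds genes with an adjusted p (q value) under 0.05 and gives each group as a single combined value. Values of single libraries could therefore not be shown, and the replicate spread enters through the authors' standard errors (SE). The depth of the libraries is unknown, and the H19 level itself, hence the extent of knockdown, was not analysed here.

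The methionine cycle supplies the methyl groups that cells put on DNA, RNA, proteins and small molecules, and the liver carries much of it. MAT1A encodes the liver form of methionine adenosyltransferase, which joins methionine to ATP to give S-adenosylmethionine (SAM), the methyl donor. Each methyl transfer leaves S-adenosylhomocysteine, which inhibits methyltransferases and which AHCY splits into adenosine and homocysteine. Homocysteine is then methylated back to methionine, in liver partly by BHMT, which uses betaine and releases dimethylglycine, and by its paralog BHMT2, which uses S-methylmethionine. AHCY protein is a known binding partner of the H19 RNA.

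The stretches of DNA just before the transcription starts of the 4 genes, of which 3 fell and 1 rose, differ in the short strings they hold. They come from RefSeq on build GRCh38.p14, each on its gene's own strand and ending at the base before the start. The MAT1A stretch is chr10:80289659-80289908, minus strand. That of BHMT is chr5:79111559-79111808, plus strand. For BHMT2 the 92 bases between its start and that of DMGDH, the neighbouring gene read the other way, are given, chr5:79069675-79069766, plus strand. AHCY has 3 starts in RefSeq, and the stretch before the start within 7 bases of that of GENCODE's AHCY-201 transcript is chr20:34303356-34303605, minus strand. Capitals mark TATATA in MAT1A, TATAAA in BHMT, and GGGCGG or its reverse complement in BHMT2 and AHCY.
MAT1A: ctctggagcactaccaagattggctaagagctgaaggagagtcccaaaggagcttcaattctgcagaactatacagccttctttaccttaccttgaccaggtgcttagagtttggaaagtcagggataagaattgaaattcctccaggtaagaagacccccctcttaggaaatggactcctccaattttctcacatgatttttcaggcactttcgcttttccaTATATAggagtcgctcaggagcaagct
BHMT: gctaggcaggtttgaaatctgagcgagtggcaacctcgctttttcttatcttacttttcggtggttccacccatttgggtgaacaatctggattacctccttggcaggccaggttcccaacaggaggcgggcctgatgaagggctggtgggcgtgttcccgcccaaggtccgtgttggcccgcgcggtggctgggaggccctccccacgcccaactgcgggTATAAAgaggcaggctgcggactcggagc
BHMT2: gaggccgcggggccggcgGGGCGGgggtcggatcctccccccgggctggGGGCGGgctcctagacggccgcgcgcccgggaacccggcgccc
AHCY: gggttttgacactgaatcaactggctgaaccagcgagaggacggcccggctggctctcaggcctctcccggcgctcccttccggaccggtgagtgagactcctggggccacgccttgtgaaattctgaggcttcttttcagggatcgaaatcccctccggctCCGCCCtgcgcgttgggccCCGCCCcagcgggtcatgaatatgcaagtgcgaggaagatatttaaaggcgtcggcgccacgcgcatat

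TATATA was found in the MAT1A stretch with its leading base at position -27 from the start, and TATAAA in the BHMT stretch at position -29. Over 35116 RefSeq promoter windows of the same length (250 bases before to 50 after the start), read on both strands, 3.99% held TATATA and 11.5% held TATAAA. Neither was found in the window of BHMT2 or in any of the 3 windows of AHCY. Only exact matches were counted, so the similar tatttaaa in the printed AHCY stretch was not. CCAAT, held by 34.6% of all windows, was found in the MAT1A window at -69 and, on the reverse strand, at -232. GGGCGG, held by 45% of all windows, was found in BHMT2, which fell, at positions -74 and -43. In this window of AHCY, which rose, it was found on the reverse strand at -88, -69 and 16. Another AHCY window held it on the reverse strand at -222 and -211, and the remaining AHCY window did not hold it. The BHMT window held it once, on the reverse strand at -92, where it is not in capitals. The MAT1A window held 3 CG pairs, below the lower quartile of all windows, which was 4. CG pairs numbered 21 in the BHMT window, 38 in that of BHMT2 and 24 in this window of AHCY, against a median of 14 over all windows. The other AHCY windows held 19 and 39. A letter match is a description of these windows and says nothing of factor binding, and a link to the direction of change was not tested. GENCODE 29 places the BHMT2 start 50 bases, the BHMT start 30 bases and the MAT1A start 26 bases further upstream than RefSeq, so the positions depend on the annotation. By the GENCODE starts, the BHMT TATAAA and the BHMT2 GGGCGG at -43 lie after the start and not before it. The same holds for the MAT1A TATATA except its leading base.

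MAT1A, BHMT and BHMT2, the 3 genes of SAM synthesis and homocysteine remethylation among the 4, fell in siH19 cells, and AHCY rose slightly. MAT1A had a normalized count of 630 in siH19 cells and 1090 in siCon cells in the authors' deposited table. Its log2 fold change in the authors' deposited table was -0.80 ± 0.10 (SE, 3 libraries per group), which leaves 57.4% of the siCon level, with an adjusted p written as 0. An adjusted p of 0 means below the precision of the table, whose smallest value above 0 was 1e-06. BHMT2 stood at 260 in siH19 cells and 537 in siCon cells, and its fall was the largest of the 4. The authors' deposited table gave it -1.04 ± 0.11 (SE) on the log2 scale, 2.06-fold, with an adjusted p again written as 0. BHMT, at 51.3 in siH19 cells and 96.3 in siCon cells, fell by 0.90 ± 0.20 (SE) on the log2 scale in the authors' deposited table, with an adjusted p of 1.89e-04. These 3 genes therefore kept between 48.6% and 57.4% of their siCon level.

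AHCY moved the other way and by less. The authors' deposited table gave it 8780 normalized counts in siH19 cells and 7281 in siCon cells, a log2 fold change of 0.27 ± 0.09 (SE), 1.21-fold, with an adjusted p of 0.0235. Its change was 3 times its SE, against 4.5 times for BHMT, 8 times for MAT1A and 9.45 times for BHMT2, and of the 4 calls AHCY's is the one lost at an adjusted p threshold of 0.01. In count terms AHCY was among the highest genes in the table, with the 53rd highest mean normalized count of 1998.

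**Figure D1:**
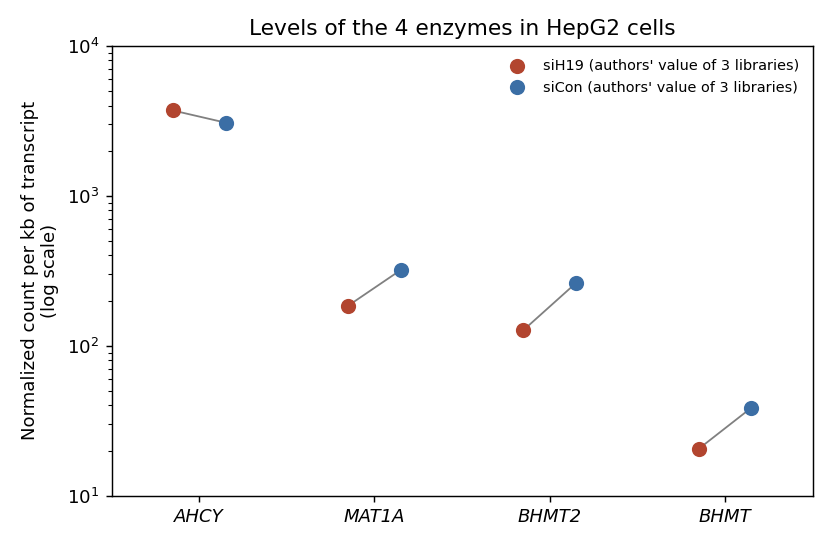
Normalized count per kb of the longest coding transcript on a log axis, for siH19 (left point of each pair) and siCon (right point), 1 authors' value per group. AHCY stands at 3711 in siH19 and 3078 in siCon cells, above the other enzymes, and MAT1A, BHMT2 and BHMT each stand lower in siH19 than in siCon cells.

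Compared per length, the steps of the cycle were unequally expressed. With the longest coding transcript of GENCODE 29 as the length, AHCY reached 3711 normalized counts per kb in siH19 cells and 3078 in siCon cells. MAT1A reached 185 in siH19 cells and 320 in siCon cells. BHMT2 had 127 normalized counts per kb in siH19 cells and 262 in siCon cells, and BHMT had 20.5 in siH19 cells and 38.5 in siCon cells. The order of levels was thus AHCY, MAT1A, BHMT2 and BHMT in both groups. The gap between MAT1A and BHMT2 was the narrowest, 1.46-fold in siH19 cells and 1.22-fold in siCon cells, and with no value per library it could not be set against the replicate spread. BHMT2 supplied most of the transcripts of the paralog pair, 86.1% of their summed level per kb in siH19 cells and 87.2% in siCon cells. The same order was found with the union of all annotated exons as the length.

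The distance in level between AHCY and the other enzyme genes widened in siH19 cells. The AHCY level per kb was 20.1 times that of MAT1A in siH19 cells and 9.63 times in siCon cells. It was 29.3 times that of BHMT2 in siH19 cells and 11.7 times in siCon cells, and 181 times that of BHMT in siH19 cells and 79.9 times in siCon cells. On the log2 scale, from the changes in the authors' deposited table, MAT1A moved -1.07 ± 0.13 relative to AHCY, BHMT -1.17 ± 0.22 and BHMT2 -1.31 ± 0.14. The errors here are the root of the summed squares of the authors' SEs, which treats genes of the same libraries as independent. The differences from AHCY were 5.33 to 9.22 times their errors.

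Among the 3 genes that fell, the sizes of the falls could not be told apart by the same measure. BHMT2 lay -0.24 ± 0.15 from MAT1A and -0.14 ± 0.23 from BHMT on the log2 scale, and MAT1A lay 0.10 ± 0.22 from BHMT. These differences were 1.61, 0.613 and 0.447 times their errors. The error is widest for BHMT, which had the lowest mean normalized count of the 4, 73.7, and the largest SE in the authors' deposited table. If normalized counts were reads, counting alone would leave an SE of 0.14 for BHMT, against the deposited 0.20. The like values were 0.063 against 0.11 for BHMT2, 0.042 against 0.10 for MAT1A and 0.013 against 0.09 for AHCY, and the median SE of all listed genes was 0.11.

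Set among the 1998 listed genes, the 3 falls were large and the AHCY rise was small. Only genes with an adjusted p under 0.05 are listed. A gene with a wide SE, such as BHMT (0.20), therefore needs a larger change to be listed than AHCY (0.09). Being lower is common in the table: 55.3% of listed genes were lower in siH19 cells and 44.7% were higher, so 3 lower of 4 says little by itself. A fall of at least 1.5-fold was less common, at 15.6% of listed genes, and MAT1A, BHMT and BHMT2 each passed it. BHMT2 had the 37th largest fall of 1105, BHMT the 76th, shared by 2 genes, and MAT1A the 110th, shared by 7. AHCY's rise was the 809th largest of 893, shared by 20 genes. The median change was -0.44 among lower and 0.46 among higher genes.

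**Figure D2:**
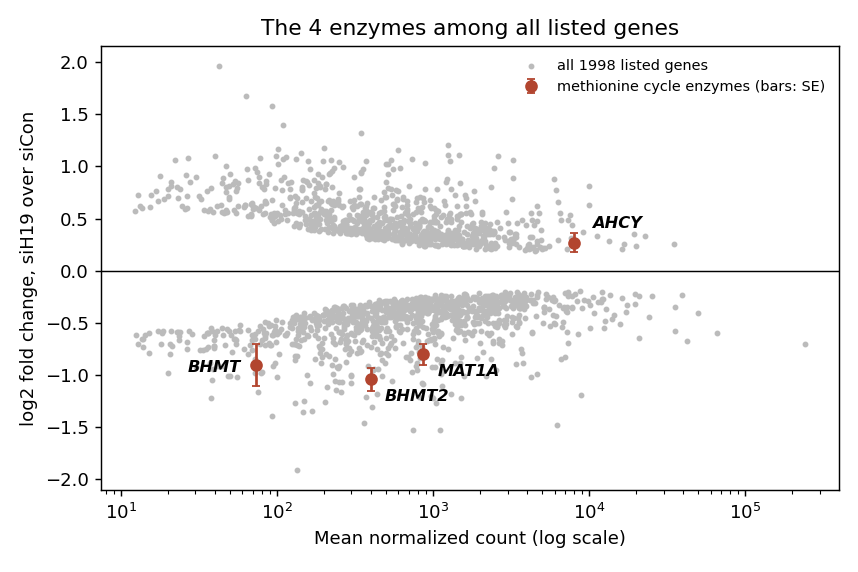
Log2 fold change of siH19 over siCon against mean normalized count (log axis) for all 1998 listed genes in grey, with the 4 enzymes in red and the authors' SE as bars. MAT1A, BHMT and BHMT2 lie between -1.04 and -0.80, and AHCY lies at 0.27, near the inner edge of the genes that rose, at a mean count of 8012.

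BHMT and BHMT2 are neighbours on chromosome 5, where they lie beside DMGDH, which encodes the mitochondrial enzyme that oxidises the dimethylglycine made by BHMT. In GENCODE 29 both genes lie within the span of DMGDH on the opposite strand. In RefSeq, DMGDH starts 93 bases from the BHMT2 start and runs away from it, so the 92 bases printed for BHMT2 separate a divergent pair, and neither BHMT2 nor BHMT overlaps DMGDH. DMGDH fell as well, with 64 normalized counts in siH19 cells and 92.4 in siCon cells and a log2 fold change of -0.53 ± 0.19 (SE, adjusted p = 0.0415) in the authors' deposited table. BHMT2 lay -0.51 ± 0.22 from DMGDH, 2.32 times the error of that difference. BHMT and DMGDH share 239 exon bases in GENCODE 29, and BHMT2 and DMGDH share 0. The labels' protocols name a strand-specific kit, and whether counting used strand was not given in the sources used here.

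Reads could pass between the paralogs over a small part of their length. The coding sequences of BHMT (1221 bases) and BHMT2 (1092 bases) were identical at 78.9% of 1092 aligned bases. Windows of 76 bases, the read length in cycles, occurred exactly in BHMT2 for 3.75% of the BHMT transcript, and 4.61% of BHMT2 windows occurred in BHMT. A further 4% of BHMT windows matched DMGDH transcripts on the other strand. Of AHCY windows 2.88% matched a transcript of another gene (AL035458.2), and no MAT1A window matched another gene. With the group counts of BHMT and BHMT2 summed, the fall was -1.03 on the log2 scale. BHMT2 supplies most of that sum, so it stays near the BHMT2 value of -1.04.

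**Figure D3:**
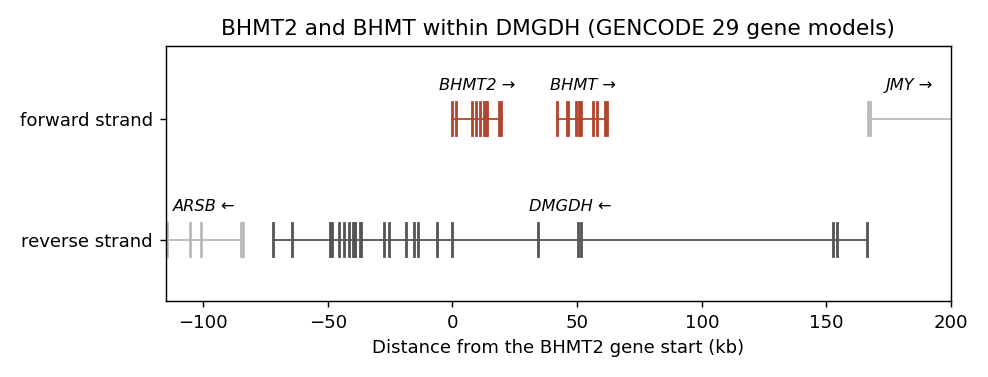
Gene models of GENCODE 29 around BHMT2, by distance in kb from its start, with exons as boxes and arrows for the direction of transcription. BHMT2 and BHMT (red) lie on the forward strand within the long DMGDH model on the reverse strand.

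Genes of the cycle, of the branches that feed or leave it and of methyl use were lower and higher in siH19 cells. Besides the 4 enzymes, the lists for these hold 188 genes, of which 35 were listed. Of these 23 were lower and 12 higher, 65.7% lower against 55.3% of all listed genes. Their median log2 change was -0.32, against -0.27 over all listed genes. Within the cycle proper, 5 of 13 genes were listed. The fifth was MTRR, which reactivates methionine synthase, at -0.37 ± 0.11 (SE, adjusted p = 0.00833) in the authors' deposited table. All 3 listed remethylation genes, of 5 in that list, were therefore lower, but BHMT and BHMT2 among them were chosen with their falls known. MAT2A and MAT2B, which encode the methionine adenosyltransferase of most other tissues, MTR and the AHCY relatives AHCYL1 and AHCYL2 have no row, which gives no level or change for them.

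The route from choline to glycine through betaine holds BHMT and, after it, DMGDH and SARDH, which oxidises sarcosine. Of its 5 genes these 3 were listed, and all 3 were lower, where 55.3% of all listed genes were lower. BHMT was chosen with its fall known and DMGDH lies beside it, so this count is no independent support for a fall of the route. SARDH had 269 normalized counts in siH19 cells and 377 in siCon cells, at -0.49 ± 0.15 (SE, adjusted p = 0.00976) in the authors' deposited table. SLC6A12, a betaine transporter, also fell in the authors' deposited table (-0.66 ± 0.22, adjusted p = 0.0191), at a low mean count of 23.7. Of 6 listed genes in the choline and betaine list of 21, 5 were lower. The phosphatidylcholine synthesis genes CHKA, a choline kinase, and PCYT1B, the enzyme of the next step, had small falls of -0.21 and -0.32 in the authors' deposited table. The exception was SLC44A2, a choline transporter-like protein, which rose by 0.84 ± 0.19 (SE, adjusted p = 1.28e-04) in the authors' deposited table.

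Of the 25 folate genes 4 were listed, 2 of the cytosol that fell and 2 of mitochondria that rose. The cytosolic enzymes ALDH1L1, which oxidises formyl-tetrahydrofolate, and SHMT1, which moves a carbon from serine to folate, fell by 0.91 ± 0.15 and 0.34 ± 0.11 (SE) in the authors' deposited table. The mitochondrial enzymes MTHFD2 and MTHFD1L each rose by 0.29, with SEs of 0.08 and 0.10, in the authors' deposited table. In the cobalamin list 3 of 13 were listed, MMAB (-0.36) and MUT (-0.30), both of the adenosylcobalamin branch, and ABCC1 (0.24), an exporter, in the authors' deposited table. For methionine and SAM carriers 2 of 10 were listed, SLC38A4 (-0.75) and SLC7A6 (-0.27), in the authors' deposited table.

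The exits of the cycle changed in both directions. CBS, which takes homocysteine into transsulfuration, rose by 0.30 ± 0.09 (SE, adjusted p = 0.0123) in the authors' deposited table, a change 0.03 ± 0.13 above that of AHCY. Further down that branch the authors' deposited table gave falls for GSR, which reduces oxidised glutathione (-0.95 ± 0.09), SQRDL, which oxidises hydrogen sulfide (-0.79 ± 0.11), and GCLM, a subunit of the enzyme that starts glutathione synthesis (-0.39 ± 0.10). These 4 were the listed genes of 13. In the list of small-molecule methyltransferases 3 of 12 were listed. GAMT, which makes creatine, stood at -0.54 ± 0.14 and C9orf41, which methylates carnosine, at -0.39 ± 0.13 in the authors' deposited table. The only riser was ICMT, at 0.50 ± 0.09, which methylates prenylated proteins and so is not a small-molecule methyltransferase.

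DNA methylation genes, of which those listed include 1 user of SAM, DNMT1, were also split. Of 15 genes 5 were listed, 3 higher and 2 lower. The maintenance methyltransferase DNMT1 had the same deposited change as AHCY, 0.27 ± 0.09 (SE), and UHRF1 (0.41 ± 0.12) and its relative UHRF2 (0.30 ± 0.10) were higher as well in the authors' deposited table. TET1, which oxidises methylcytosine, and MBD2, which binds methylated DNA, were lower at -0.75 ± 0.13 and -0.60 ± 0.14 in the authors' deposited table.

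**Figure D4:**
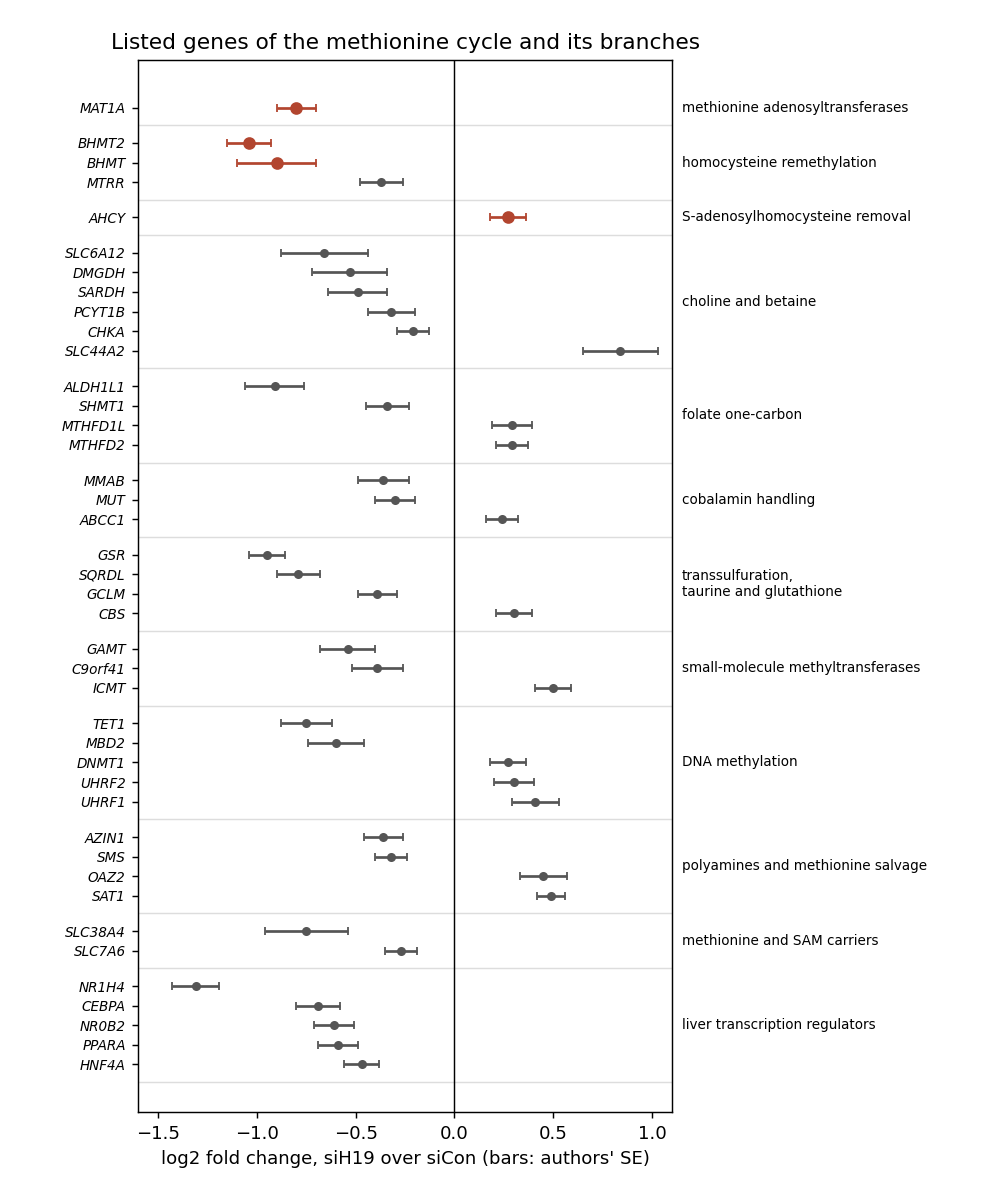
Log2 fold change of siH19 over siCon with the authors' SE for each listed gene of the methionine cycle and 9 lists around it, the 4 enzymes in red. BHMT2, BHMT and MAT1A lie at -1.04, -0.90 and -0.80, and AHCY lies at 0.27.

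Listed liver regulators and hepatocyte markers were lower beside MAT1A, BHMT and BHMT2, in a table where 55.3% of genes were lower. Of 14 transcription regulators of liver genes and RNA-binding proteins, 5 were listed and all 5 were lower, from HNF4A (-0.47 ± 0.09) and PPARA (-0.59 ± 0.10) through NR0B2 (-0.61 ± 0.10) and CEBPA (-0.69 ± 0.11) to NR1H4 (-1.31 ± 0.12) in the authors' deposited table. Of 9 hepatocyte markers 8 were listed, TF having no row, and all 8 were lower, with a median of -0.53 and a summed normalized count of 311713 in siH19 cells and 486893 in siCon cells. HNF4A is counted in both lists. TTR, transthyretin (-0.88 ± 0.09), and APOB, an apolipoprotein (-0.70 ± 0.09), had the largest marker changes in the authors' deposited table. Albumin, ALB, changed by -0.67 ± 0.07 (SE) in the authors' deposited table, and MAT1A lay -0.13 ± 0.12, BHMT -0.23 ± 0.21 and BHMT2 -0.37 ± 0.13 from it. Of the markers of other cell types the authors' deposited table lists 2 of 6 for blood (CD68 at -1.21, LYZ at -0.64), 1 of 6 for endothelium (LYVE1, -0.98), 1 of 7 for fibroblasts and stellate cells (ACTA2, -0.83) and 2 of 6 for bile duct (SPP1 at 0.53, CD24 at 1.20). The summed normalized counts of the listed blood markers were 16759 in siH19 cells and 26484 in siCon cells. They were 52.7 in siH19 and 105 in siCon cells for endothelium, 484 in siH19 and 861 in siCon cells for fibroblasts and stellate cells, and 10587 in siH19 and 6883 in siCon cells for bile duct. All 6 libraries are of HepG2 cells, so the marker names label genes and not cells of other types. Bulk libraries do not show whether all cells shifted or only some. The part of these shifts in the enzyme changes was not tested.

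A pair of 7-base strings in 3' untranslated regions went with the direction of change across the table, and none of the 4 enzymes holds them. The strings were chosen with earlier results of these data known, so the shares below are descriptive and no independent support. The length of the regions was not taken into account, and a link of the strings to the changes was not tested. CATCAAA was found in 17.1% of 1921 listed genes searched, of which 71.6% were lower in siH19 cells, against 51.1% of genes without it. GCAGTAC was found in 9.01%, of which 16.8% were lower, against 58.4% of genes without it. In the longest coding transcripts of MAT1A, BHMT, BHMT2 and AHCY, with regions of 1961, 1174, 892 and 764 bases, there were 0 matches to either string. DMGDH held CATCAAA once, and SARDH and MTRR held neither.

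By level and change together, a handful of genes lay closest to each enzyme. The likeness is the distance over only 2 values, the log2 levels in siH19 and siCon cells. Nearest to MAT1A were TET1, at a distance of 0.04, and TKFC, a triose kinase, at 0.05. For BHMT they were CYP4F3, a cytochrome that breaks down leukotriene B4 (0.036), and the matrix protease MMP3 (0.045). For BHMT2 they were ODAM and LOC101927884, both at 0.11. AHCY lay next to the long noncoding RNA LINC00657 (0.057) and to NKD1, an inhibitor of Wnt signalling (0.10), whose changes in the authors' deposited table were 0.27 and 0.31.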

How the data were processed

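RNA was measured in 6 libraries of HepG2 cells, 3 per group. Per the labels' protocols, ribosomal RNA was depleted and libraries came from a strand-specific kit for total RNA, read in pairs over 76 cycles. Per the submitters' processing notes, STAR 2.5.0a, Cufflinks 2.2.1 and DESeq2 1.0.0 were used with build hg19, with no role or order given. No annotation is named, and shrinkage of fold changes is not given in the sources used here. Nothing says whether the libraries came from separate cultures, so the SEs may reflect technical spread only.

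Per the file headers, the authors deposited group values, a fold change and its SE on the log2 scale. The authors' mean count is a normalized signal rather than whole reads. The authors' q value (adjusted p-value) is under 0.05 in all rows. The deposited change equalled siH19 minus siCon within 0.01. The design foresaw a fit to counts per library, and as the file holds the authors' comparison, no test of single genes was added.

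Group counts were taken as powers of 2 of the log2 values and divided by transcript length from GENCODE 29 (build GRCh38). That build differs from hg19, so GENCODE gives lengths, overlaps and 3' regions only. Of 1998 symbols 1973 were matched, and RefSeq promoter windows matched all 4 enzymes. Analysis used Python 3.11.15, pandas 2.3.3 and Biopython 1.88, and counting steps were tested on simulated data. The enzymes and gene lists were chosen with earlier results of these data known, the 3' strings among them, and so support nothing by their direction. The genes named are the 4 enzymes, all listed genes of the cycle's lists, the 2 nearest genes of each enzyme, overlapping genes and the 2 largest changes of each wider list. ALB and the genes without a row were named after values were seen.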

Additional observations from a re-analysis of the deposited data

How the results depend on the processing

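The log2 changes of the 4 enzymes and their differences from AHCY were within 0.01 when taken from the group values. Relative to the median of all listed genes (-0.27) the changes were -0.53 for MAT1A, -0.63 for BHMT, -0.77 for BHMT2 and 0.54 for AHCY. That median covers called genes only and is no centre of all genes measured. These values therefore do not correct the changes, and the larger AHCY value is no larger rise. At an adjusted p threshold of 0.01, AHCY (0.27, adjusted p = 0.0235) was no longer called, and the other enzymes were. With the union of exons as the length, levels per kb in siH19 and siCon cells were 171 and 295 for MAT1A, 14.6 and 27.4 for BHMT, 81.6 and 169 for BHMT2, and 2255 and 1870 for AHCY. Without genes that overlap another listed gene, BHMT and BHMT2 drop out and 1 enzyme, MAT1A, is left lower. Counted as 1 locus, BHMT and BHMT2 leave 2 lower, a count added after the data were seen, as was their summed fold change. Of the genes in the lists with the 4 enzymes and the liver regulators (31 lower, 13 higher), 20 lower and 7 higher were left at the 0.01 threshold, 14 and 1 at 1.5-fold or more, and 16 and 10 among genes of at least the median mean level. No paired analysis was possible because the table holds 1 combined value per group, and for the same reason no replicate could be left out. Depth is unknown, and only called genes are listed, so a gene without a row cannot be called unaffected.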

Other observations

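Genes of polyamine handling, a branch that draws on SAM, moved in both directions. Of 16 genes of polyamine synthesis and methionine salvage, 4 were listed. SMS, which makes spermine, and AZIN1, which relieves the block on polyamine synthesis, were lower at -0.32 ± 0.08 and -0.36 ± 0.10 (SE) in the authors' deposited table. SAT1, which acetylates polyamines for breakdown or export, and OAZ2, an antizyme that restrains their synthesis, were higher at 0.49 ± 0.07 and 0.45 ± 0.12 in the authors' deposited table. SAT1 stood at 8599 normalized counts in siH19 cells and 6081 in siCon cells.

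Some genes of RNA and protein methylation were listed as well. Of 18 RNA methylation genes 1 was, the demethylase ALKBH5 at -0.26 ± 0.08 (SE) in the authors' deposited table. Of 36 genes in the list of protein methyltransferases, which leaves out ICMT, 2 were, DOT1L at -0.27 ± 0.10 and SMYD2 at 0.30 ± 0.09. The share of all measured genes that is listed is unknown, so these counts cannot be called low or high.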
